A study of Mus musculus with 6 samples.

Results

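The genes described here are 46 genes of the G2 phase, mitosis and cytokinesis, taken from the deposited table by symbol from a list of names. All 46 were among the 22081 genes of the table, and all 46 reached the minimum level for testing, which left 18562 genes in all. The table came from RNA-seq of mouse muscle stem cells (MuSCs, from which adult muscle regenerates) taken directly after isolation, with 3 control libraries and 3 libraries labelled Taf4asKO. The comparison asked how transcripts of MuSCs change when Taf4a (now Taf4), which encodes a subunit of the general transcription factor TFIID, is inactivated. Values are normalized counts, which are reads per gene divided by a size factor of the library and rounded to whole numbers.

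Both groups were adult mice of both sexes on a C57BL/6 background and carried Taf4a fl/fl, in which loxP sites flank 2 coding exons. Taf4asKO mice were Pax7CE+/p, Taf4a fl/fl, with or without a Pax7 zsGreen reporter, and received tamoxifen. Pax7CE is a tamoxifen-inducible Cre recombinase expressed from the Pax7 locus, so the deletion depends on Pax7 expression. Controls were Taf4a fl/fl littermates, either Pax7CE+/+ or Pax7CE+/p, again with or without the reporter. Which of these genotypes was behind which control library is not given in the sources used here. The list of genotypes states tamoxifen for Taf4asKO mice alone, and whether the controls of these libraries received it is not given. An effect of the drug therefore cannot be told apart from that of the deletion. Cells were depleted of blood, endothelial and SCA1+ cells with magnetic beads and sorted for integrin α7 or for the green reporter. RNA of 90000 sorted cells was extracted and 10 ng of total RNA entered each library. The labels do not say whether libraries came from separate animals, so p-values measure the spread between these samples.

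Most MuSCs of uninjured muscle rest in a reversible state outside the cell cycle, called quiescence. Cells that enter the cycle switch on a late group of genes in G2 and mitosis, whose products drive entry into mitosis, condense and separate the chromosomes, build the spindle and cut the cell at cytokinesis. Transcripts of this group are scarce in resting cells and are widely read as a sign of proliferation. In textbook accounts, many of their promoters hold CCAAT boxes, which bind the factor NF-Y, and a cell cycle homology region (CHR), which binds the MuvB core of the DREAM and B-MYB complexes, which repress or activate these genes by cycle phase.

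Reads behind the values were estimated at 10577850 to 17612409 per library. Taf4 itself lay between 478 and 613 normalized counts in control and between 565 and 631 in Taf4asKO as labelled, so the gene total did not separate the labels (log2 fold change 0.13, SE 0.12, limma adjusted p 0.524), and each direction given here rests on the labels. That total sums reads over all exons, most of which lie outside the deleted pair. The MuSC marker Pax7 was between 12082 and 13007 in control and between 10363 and 11164 in Taf4asKO. The summed level of the 10 listed MuSC markers lay between 55067 and 55543 in control and between 48345 and 50200 in Taf4asKO, with 5 markers lower and 2 higher past the threshold.

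The G2, mitosis and cytokinesis genes were lower in Taf4asKO. Their median log2 fold change was -1.26, beside 0.004 over all 18562 genes tested, and 42 of the 46 had a negative value. Of the 46 genes, 23 fell past the threshold, which was an adjusted p under 0.05 in limma and a fold of at least 1.3, and 0 rose. Over all genes tested, 6.71% fell and 5.93% rose past the same threshold. At an unadjusted p under 0.05 in limma 34 of the 46 were lower and 1, Pttg1, was higher, beside 14.2% and 14.6% of all genes tested, and limma-voom on estimated reads gave 23 lower and 0 higher. In bulk RNA of this kind, fewer cycling cells and less RNA per cycling cell cannot be told apart.

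In 31 of the 46 genes every Taf4asKO library was below every control library, beside 16.4% of all genes tested. In 1 gene, Pttg1, every Taf4asKO library was above every control library, beside 16.6% of all genes. With the replicate number as a block, which compares same-numbered libraries, 33 of the 46 genes fell and 0 rose, beside 8.98% of all genes that fell and 9.09% that rose in that fit. The summed normalized counts of the 46 genes were, by replicate number, 7021, 10592 and 5676 for control and 4183, 4424 and 3526 for Taf4asKO. Without Mki67, the gene that adds most to the control sum, these sums were 5934, 8360 and 4949 in control and 3933, 3997 and 3337 in Taf4asKO, so the groups did not overlap with or without it.

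A pair of libraries stood apart in these genes. Control replicate 2 held the highest value of all 6 libraries in 41 of the 46 genes, a place it took in 24.1% of all genes tested. Taf4asKO replicate 3 held the lowest value in 37 of the 46 genes, beside 14.4% of all genes tested. Without Taf4asKO replicate 3, 6 of the 46 genes passed (Racgap1, Plk4, Cdc25b, Mki67, Kif23 and Ncaph), beside 3.21% of all genes that fell in that fit. Leaving out another Taf4asKO library lowered the count as well, to 9 without replicate 1 (4.26% of all genes) and 13 without replicate 2 (3.35%). Leaving out a control library gave 21 without replicate 1 (5.17% of all genes), 17 without replicate 2 (8.11%) and 25 without replicate 3 (5.86%). Without control replicate 2 fewer of the 46 genes passed than with all 6 libraries, while more genes fell over the whole table. With both libraries left out, 2 passed (Cdc25b and Racgap1), beside 2.55% of all genes. The median log2 fold change was then -0.65, with 40 of 46 values negative. This pair was picked from these genes as the highest control and the lowest Taf4asKO library, so a smaller difference was built in. The fit on the remaining 4 libraries has fewer samples and passed fewer genes over the whole table as well.

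**Figure D1:**
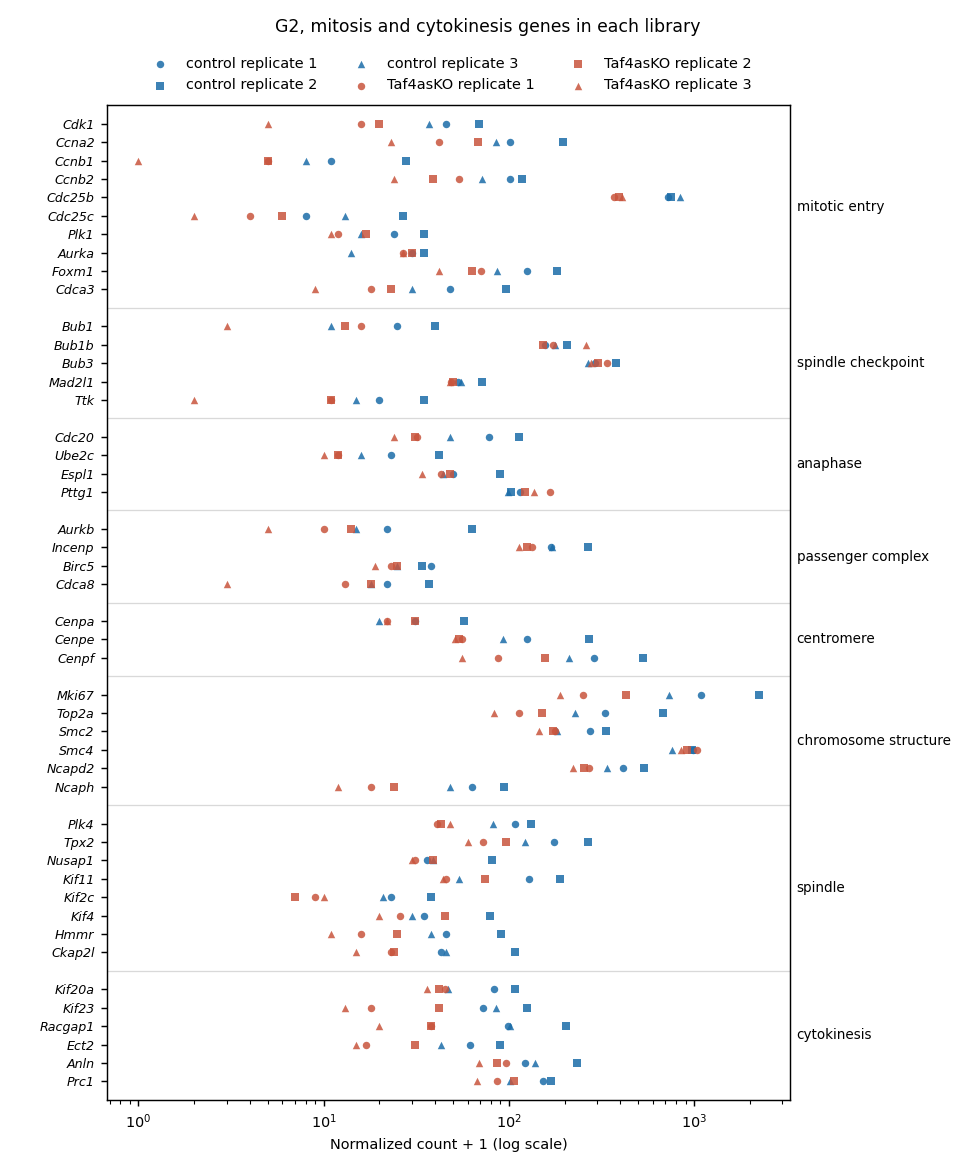
Normalized count plus 1 (log scale) of each of the 46 genes in each of the 6 libraries, grouped by role, with control in blue and Taf4asKO in red and the replicate number as the shape of the point. In most genes the 3 red points lie to the left of the 3 blue points, control replicate 2 is the point farthest to the right in 41 genes, and Taf4asKO replicate 3 is the point farthest to the left in 37.

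Levels of these genes were low for the most part. Means over the 6 libraries ran from 8.67 in Ccnb1 to 917 in Smc4, with a median of 56.0 beside 101 for all genes tested, and 31 of the 46 genes were under 100. Per kilobase of exon, the control means of the most abundant members were 207 in Cdc25b, 174 in Smc4 and 134 in Mki67 (normalized counts per kilobase). In control libraries Ccnb1 and Cdc25c, at the other end, had 3.48 and 3.05 per kilobase. Counting error is large at such levels, and Ccnb1 was the 1 gene with a value of 0 in some library.

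The promoters of these genes were read because the genes moved together. RefSeq windows from 250 bases before to 50 after the start of transcription (GRCm38.p6) were matched by symbol for 38 of the 46 genes, and not for Tpx2, Foxm1, Ccna2, Cdc25c, Incenp, Kif20a, Aurkb and Smc4. The letters searched were CCAAT for the CCAAT box, TTTGAA for the CHR, GGGCGG for the GC box and TATAAA for the TATA box, on both strands, and each motif was counted on its own also where 2 matches overlapped. Each listed gene was given a single window, that of the start nearest its 5′ end. The background took every window of the source and was not limited to the genes tested. A CCAAT box was found in 30 of the 38 windows (78.9%), beside 37.4% of all 32851 windows of the same length. A CHR was found in 28 of 38 (73.7%), beside 17.9% of all windows, and both together in 26 of 38 (68.4%), beside 6.95%. The GC box was found in 29 of 38 (76.3%, beside 35.7%) and the TATA box in 1 of 38, Kif2c (2.63%, beside 13.6%). At least 2 CCAAT boxes stood in 20 of 38 windows (52.6%, beside 11.7%).

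A CCAAT box was found in 15 of 19 windows of genes that fell and in 15 of 19 of genes that did not pass, and a CHR in 15 of 19 and 13 of 19. The windows of genes that fell held 40 CCAAT boxes and 22 CHRs in all, and the others 30 and 14, a difference that was not tested. CCAAT boxes lay at a median of -69.5 bases from the start (70 matches) and CHRs at -1.5 bases (36 matches). Such a match is a description of the letters and not evidence of binding.

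The 120 bases before the start are printed for 8 genes, written 5′ to 3′ along the strand of the gene, with CCAAT boxes (CCAAT or ATTGG) and CHRs (TTTGAA or TTCAAA) in capitals. Cdk1, Ccnb1, Ccnb2 and Cdc20 are shown as the core of the mitotic switch, Cdc25b and Racgap1 because they passed in each of 16 refits at the fold limit of 1.3, and Bub3 and Pttg1 because they did not fall.
Cdk1, chr10:69352913-69353032, minus strand: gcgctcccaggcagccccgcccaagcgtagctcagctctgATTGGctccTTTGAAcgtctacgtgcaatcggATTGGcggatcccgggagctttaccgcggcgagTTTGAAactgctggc
Ccnb1, chr13:100786487-100786606, minus strand: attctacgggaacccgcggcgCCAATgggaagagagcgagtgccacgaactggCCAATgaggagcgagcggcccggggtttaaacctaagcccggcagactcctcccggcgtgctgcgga
Ccnb2, chr9:70421555-70421674, minus strand: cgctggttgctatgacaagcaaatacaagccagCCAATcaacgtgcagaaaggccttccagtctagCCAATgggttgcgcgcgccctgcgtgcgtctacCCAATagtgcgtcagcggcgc
Cdc20, chr4:118437344-118437463, minus strand: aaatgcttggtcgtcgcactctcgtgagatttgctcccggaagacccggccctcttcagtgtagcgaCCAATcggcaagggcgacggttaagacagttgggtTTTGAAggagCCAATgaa
Cdc25b, chr2:131186828-131186947, plus strand: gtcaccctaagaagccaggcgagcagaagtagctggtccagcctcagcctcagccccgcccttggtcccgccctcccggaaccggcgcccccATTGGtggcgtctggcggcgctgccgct
Racgap1, chr15:99651657-99651776, minus strand: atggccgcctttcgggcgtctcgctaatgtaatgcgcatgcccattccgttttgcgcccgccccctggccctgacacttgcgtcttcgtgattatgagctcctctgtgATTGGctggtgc
Bub3, chr7:131560250-131560369, plus strand: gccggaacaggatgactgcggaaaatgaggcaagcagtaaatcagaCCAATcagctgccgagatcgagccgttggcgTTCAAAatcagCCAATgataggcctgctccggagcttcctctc
Pttg1, chr11:43425982-43426101, minus strand: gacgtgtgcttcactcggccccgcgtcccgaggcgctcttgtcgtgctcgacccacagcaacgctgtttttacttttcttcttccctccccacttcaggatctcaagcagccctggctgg

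Bub3, which did not fall, held 2 CCAAT boxes and a CHR in its window, more than Racgap1 or Cdc25b, which fell. Racgap1 had 1 CCAAT box and a CHR that lies after the start and outside the printed bases, and Cdc25b had 1 CCAAT box and no CHR. Pttg1, Ncaph, Plk4, Nusap1, Mad2l1 and Birc5 held neither a CCAAT box nor a CHR, and among these Ncaph and Plk4 fell.

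**Figure D2:**
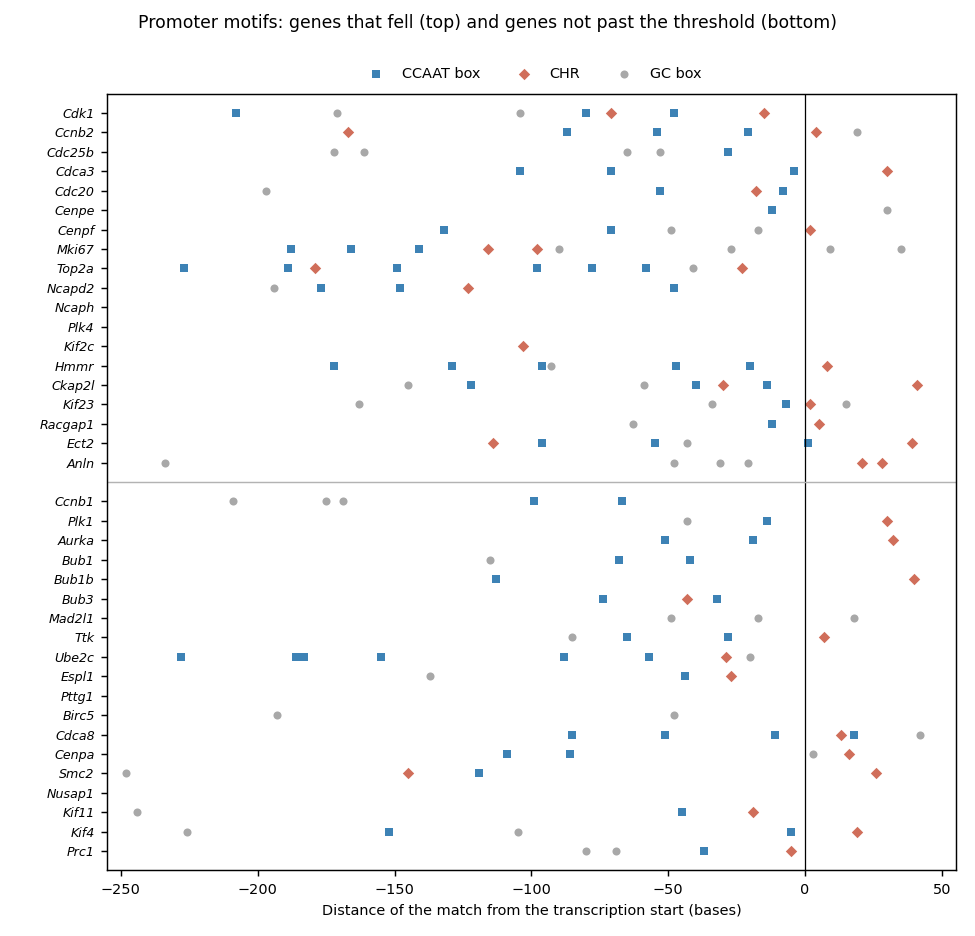
Distance in bases from the transcription start (vertical line at 0) to each CCAAT box (squares), CHR (diamonds) and GC box (circles) in the 38 promoter windows, with the 19 genes that fell on top and the 19 genes not past the threshold below. Both sets hold CCAAT boxes before the start and CHRs near it, and 15 of 19 windows in each set hold a CCAAT box.

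Of the 10 genes of entry into mitosis, 6 fell, 0 rose and 4 did not pass. Cdk1 (ENSMUSG00000019942, mm10 chromosome 10, 69335146 to 69352938, minus strand), the kinase that starts mitosis, had 45, 68 and 36 normalized counts in control libraries and 15, 19 and 4 in Taf4asKO. The groups did not overlap, and control replicate 2 was the highest library and Taf4asKO replicate 3 the lowest. Its mean fell from 49.7 ± 16.5 to 12.7 ± 7.77 (SD, n = 3), for a log2 change of -2.07 (SE 0.50, limma adjusted p 0.0252). With both outlying libraries left out it was -1.21 and did not pass (limma adjusted p 0.0852).

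The cyclins that partner this kinase moved the same way. Ccna2, cyclin A of S phase and G2, had 100, 195 and 84 in control and 41, 67 and 22 in Taf4asKO (log2 fold change -1.56, SE 0.41, limma adjusted p 0.0336). Ccnb2, a mitotic cyclin B, had 101, 117 and 71 in control and 53, 38 and 23 in Taf4asKO, with a log2 change of -1.37 (SE 0.32, limma adjusted p 0.0206). In both cyclins the groups did not overlap. Ccnb1, the other main mitotic cyclin, was near the limit of detection, with 10, 27 and 7 in control and 4, 4 and 0 in Taf4asKO. Its values did not overlap either, but with a log2 change of -2.21 (SE 0.73) it did not pass without the replicate block (limma adjusted p 0.0759) and passed with it (0.0163).

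Phosphatases of the CDC25 family remove the inhibitory phosphates of CDK1. Cdc25b (ENSMUSG00000027330, chromosome 2, 131186949 to 131198497, plus strand) had 726, 750 and 841 normalized counts in control libraries and 367, 390 and 406 in Taf4asKO. The replicates of each group were close together, and this was the smallest standard error of the 46 genes. Its mean fell from 772.3 ± 60.7 to 387.7 ± 19.6 (SD, n = 3), for a log2 change of -0.99 (SE 0.11, limma adjusted p 0.000593), and -1.04 with both outlying libraries left out (limma adjusted p 0.0216). Cdc25c had 7, 26 and 12 in control and 3, 5 and 1 in Taf4asKO and passed with the replicate block but not without it (limma adjusted p 0.0221 and 0.0569). Both genes therefore lay apart by group, Cdc25b at a high level and Cdc25c at a few reads.

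Foxm1, a transcription factor that activates mitotic genes, had 125, 182 and 85 in control and 70, 62 and 41 in Taf4asKO (log2 fold change -1.13, SE 0.30, limma adjusted p 0.0336). Cdca3, a factor that helps mark WEE1 for degradation at mitotic entry, had 47, 96 and 29 in control and 17, 22 and 8 in Taf4asKO (-1.74, SE 0.48, limma adjusted p 0.0390). Neither overlapped between groups. The kinase genes Plk1 and Aurka did not pass in either fit. Plk1 had 23, 34 and 15 in control and 11, 16 and 10 in Taf4asKO (-0.86, limma adjusted p 0.173), and Aurka, a centrosome kinase, had 29, 34 and 13 in control and 26, 29 and 26 in Taf4asKO (0.19, limma adjusted p 0.780). The 95% interval of Aurka, from -0.63 to 1.02, spans sizeable changes in both directions.

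The spindle checkpoint holds anaphase until each chromosome is attached. Of its 5 genes 0 fell and 0 rose past the threshold in limma, and 0 in limma-voom. With 6.71% of all genes lower and 5.93% higher, a count of 0 among 5 genes is near the background. At an unadjusted p under 0.05, 1 was lower (Ttk), beside 14.2% of all genes. Bub3, a subunit shared by checkpoint complexes, had 291, 376 and 267 normalized counts in control libraries and 337, 302 and 276 in Taf4asKO, with overlapping groups. Its log2 fold change was -0.02, with a 95% interval from -0.36 to 0.32. Bub1b, the checkpoint protein BUBR1, had 155, 204 and 176 in control and 173, 152 and 259 in Taf4asKO (0.10, interval -0.36 to 0.56). Mad2l1, which encodes MAD2, lay between 52 and 71 in control and between 47 and 49 in Taf4asKO (-0.28, limma adjusted p 0.443).

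The checkpoint kinases Bub1 and Ttk had fewer reads and more negative values. Bub1 had 24, 39 and 10 in control and 15, 12 and 2 in Taf4asKO, with overlapping groups (log2 fold change -1.38, SE 0.67). Ttk, which encodes MPS1, had 19, 34 and 14 in control and 10, 10 and 1 in Taf4asKO, without overlap (-1.81, SE 0.66). With the replicate block both passed (limma adjusted p 0.0360 and 0.0207), and without it neither did (0.209 and 0.103).

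Among the 4 genes of the onset of anaphase, 1 fell. Cdc20, the activator that directs the anaphase-promoting complex (APC/C) to cyclin B and securin, had 77, 113 and 47 in control and 31, 30 and 23 in Taf4asKO. The groups did not overlap, and the log2 fold change was -1.39 (SE 0.32, limma adjusted p 0.0204). Ube2c, the ubiquitin-conjugating enzyme of this complex, had 22, 41 and 15 in control and 11, 11 and 9 in Taf4asKO and did not pass (-1.14, limma adjusted p 0.0933). Espl1, the separase that cuts cohesin, lay between 43 and 89 in control and between 33 and 47 in Taf4asKO (-0.50, limma adjusted p 0.312). Pttg1, which encodes securin, the inhibitor of separase, had 114, 102 and 98 in control and 165, 121 and 136 in Taf4asKO. It was the 1 member whose Taf4asKO values all exceeded the control values, and its log2 fold change of 0.41 (SE 0.17) did not pass without the replicate block (limma adjusted p 0.148) or with it (0.104).

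Of the 4 genes of the chromosomal passenger complex, which corrects faulty attachments and later acts at the cleavage furrow, 1 fell. Incenp, its scaffold, had 168, 266 and 171 in control and 132, 124 and 112 in Taf4asKO (log2 fold change -0.68, SE 0.20, limma adjusted p 0.0474). The groups did not overlap. Aurkb, its kinase, had 21, 62 and 14 in control and 9, 13 and 4 in Taf4asKO, again without overlap, and passed with the replicate block but not without it (-1.63, SE 0.57, limma adjusted p 0.0123 and 0.0907). Control replicate 2 stood far above the other control libraries. Cdca8, which encodes borealin, had 21, 36 and 17 in control and 12, 17 and 2 in Taf4asKO and likewise passed with the block but not without it (-1.46, limma adjusted p 0.0386 and 0.156). Birc5, which encodes survivin, did not pass in either (-0.52, limma adjusted p 0.277).

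Of the 3 centromere genes, 2 fell. Cenpf, a large protein of the outer kinetochore, had 289, 528 and 210 normalized counts in control libraries and 86, 155 and 55 in Taf4asKO, a log2 change of -1.80 (SE 0.39, limma adjusted p 0.0148). Cenpe, a motor that moves chromosomes to the metaphase plate, had 124, 270 and 92 in control and 55, 53 and 50 in Taf4asKO (-1.45, SE 0.34, limma adjusted p 0.0199). In both the groups did not overlap, and in Cenpe the Taf4asKO libraries were almost equal while the control libraries spread widely. Cenpa, the histone H3 variant of centromeres, had 30, 56 and 19 in control and 21, 30 and 21 in Taf4asKO and overlapped (-0.41, limma adjusted p 0.531).

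Among the 6 genes of chromosome structure, 4 fell. Mki67 (ENSMUSG00000031004, chromosome 7, 135689784 to 135716361, minus strand), the Ki-67 antigen that coats mitotic chromosomes, had 1087, 2232 and 727 normalized counts in control libraries and 250, 427 and 189 in Taf4asKO. The groups did not overlap, although the control libraries alone spread widely. Its mean fell from 1349 ± 786 to 288.7 ± 124 (SD, n = 3), for a log2 change of -2.15 (SE 0.38, limma adjusted p 0.00602), and was -1.44 with both outlying libraries left out (limma adjusted p 0.0588). Top2a, the topoisomerase that untangles sister chromatids, had 329, 676 and 226 in control and 113, 150 and 82 in Taf4asKO (-1.72, SE 0.35, limma adjusted p 0.0121).

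Condensin, the complex that compacts mitotic chromosomes, was uneven among its members. Ncaph, a subunit of condensin I, had 62, 93 and 47 in control and 17, 23 and 11 in Taf4asKO (log2 fold change -1.93, SE 0.35, limma adjusted p 0.00689). Ncapd2, of the same complex, had 410, 535 and 338 in control and 269, 254 and 220 in Taf4asKO (-0.77, SE 0.17, limma adjusted p 0.0175). The core ATPases, shared by both condensins, did not pass without the replicate block. Smc2 had 273, 333 and 180 in control and 176, 172 and 145 in Taf4asKO and passed with the replicate block but not without it (-0.63, limma adjusted p 0.0158 and 0.0811). Smc4 had 980, 976 and 761 in control and 1030, 911 and 846 in Taf4asKO, with overlapping groups (0.04, 95% interval -0.24 to 0.33).

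Of the 8 spindle genes, 5 fell and all 8 had negative values. Plk4, the kinase that starts centriole duplication, had 107, 130 and 81 normalized counts in control libraries and 40, 42 and 47 in Taf4asKO (log2 fold change -1.26, SE 0.23, limma adjusted p 0.00646). Here Taf4asKO replicate 3 was the highest of its group, unlike in most members. Tpx2, an activator of Aurora A on the spindle, had 175, 266 and 121 in control and 72, 95 and 59 in Taf4asKO (-1.26, SE 0.28, limma adjusted p 0.0182). Kif2c, a kinesin that takes microtubules apart at centromeres, had 22, 37 and 20 in control and 8, 6 and 9 in Taf4asKO (-1.62, SE 0.37, limma adjusted p 0.0197). None of these 3 overlapped between groups.

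Hmmr, a spindle protein first described as a hyaluronan receptor, had 45, 90 and 37 in control and 15, 24 and 10 in Taf4asKO (-1.73, SE 0.41, limma adjusted p 0.0225). Ckap2l, also called radmis, had 42, 107 and 45 in control and 22, 23 and 14 in Taf4asKO (-1.56, SE 0.38, limma adjusted p 0.0259). Both were free of overlap. Kif11, the motor that pushes spindle poles apart, had 128, 187 and 53 in control and 45, 73 and 43 in Taf4asKO, so that control replicate 3 fell within the Taf4asKO range, and it passed with the replicate block but not without it (-1.04, limma adjusted p 0.0144 and 0.124). The microtubule binder Nusap1 (-0.55) and the chromokinesin Kif4 (-0.61) overlapped and did not pass in either fit.

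Of the 6 genes of cytokinesis, 4 fell, and with the replicate block all 6 did. Racgap1 (ENSMUSG00000023015, chromosome 15, 99620496 to 99651656, minus strand) and Kif23 encode the subunits of centralspindlin, which bundles the midzone and recruits the RhoA activator ECT2. Racgap1 had 98, 203 and 100 normalized counts in control libraries and 37, 37 and 19 in Taf4asKO. Its mean fell from 133.7 ± 60.1 to 31.0 ± 10.4 (SD, n = 3), for a log2 change of -2.05 (SE 0.35, limma adjusted p 0.00488), and it remained past the threshold with both outlying libraries left out (-1.40, limma adjusted p 0.0329). Kif23 had 72, 125 and 84 in control and 17, 41 and 12 in Taf4asKO (-2.10, SE 0.41, limma adjusted p 0.00973). Neither overlapped between groups.

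Ect2, the RhoA activator itself, had 61, 89 and 42 in control and 16, 30 and 14 in Taf4asKO (-1.64, SE 0.37, limma adjusted p 0.0176). Anln, which encodes anillin, the scaffold of the contractile ring, had 121, 231 and 137 in control and 96, 85 and 68 in Taf4asKO (-0.92, SE 0.25, limma adjusted p 0.0388). In both the highest Taf4asKO value was below the lowest control value. Kif20a and Prc1, which bring passenger proteins and crosslinking to the midzone, passed with the replicate block but not without it. Kif20a lay between 46 and 107 in control and between 35 and 44 in Taf4asKO (-0.88, limma adjusted p 0.0886 without the block and 0.0316 with it), and Prc1 between 100 and 168 in control and between 66 and 106 in Taf4asKO (-0.69, 0.0911 and 0.0159).

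**Figure D3:**
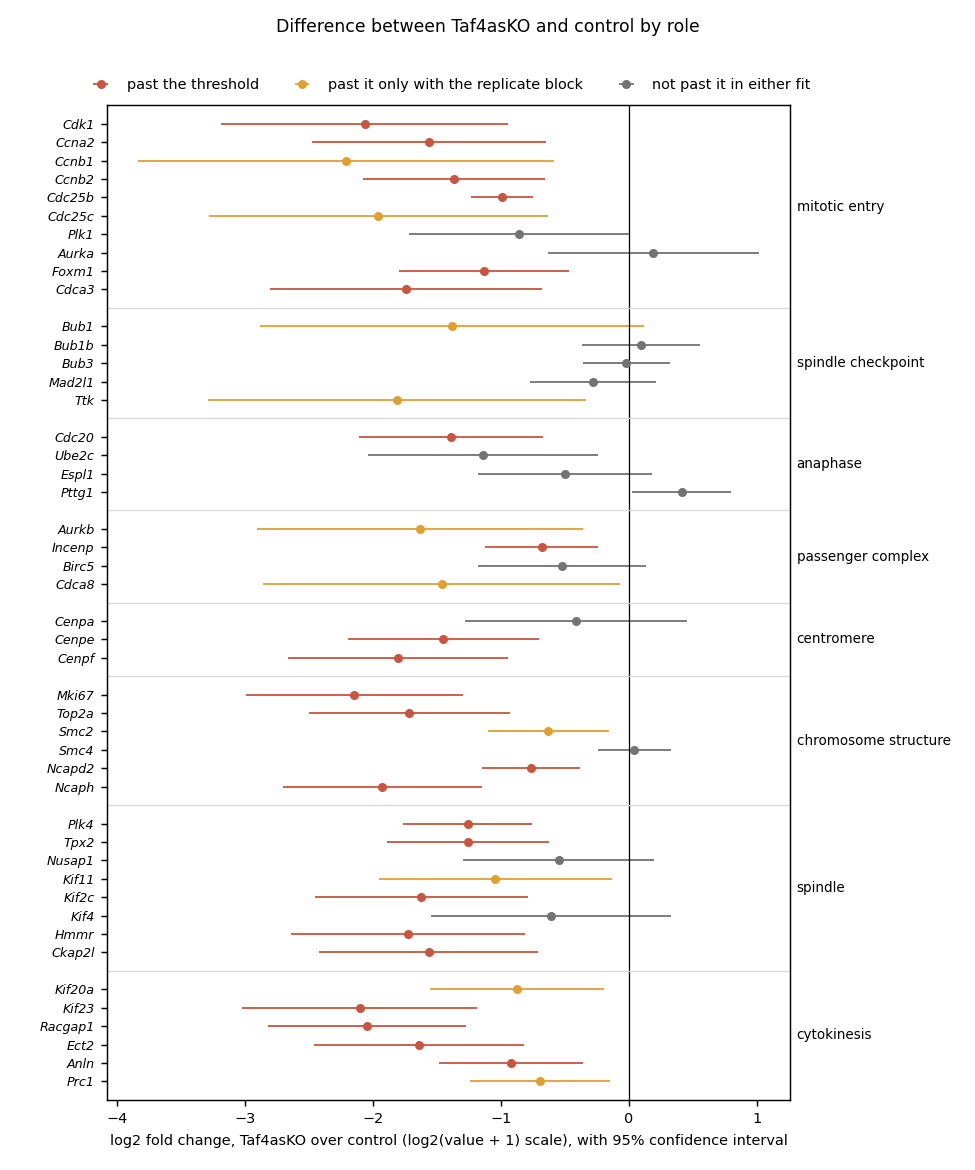
Log2 fold change of Taf4asKO over control with its 95% confidence interval for each of the 46 genes by role, on the log2(value + 1) scale, with red for the 23 genes past the threshold, orange for those past it with the replicate block but not without, and grey for those past it in neither fit. Values run from -2.21 in Ccnb1 to 0.41 in Pttg1, and the vertical line marks 0.

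By role, the median log2 fold change was -1.46 for entry, -0.28 for the checkpoint, -0.82 for anaphase onset, -1.07 for the passenger complex, -1.45 for centromeres, -1.24 for chromosome structure, -1.26 for the spindle and -1.28 for cytokinesis. The differences between roles were not tested. With the replicate block the genes that fell numbered 8 of 10, 2 of 5, 1 of 4, 3 of 4, 2 of 3, 5 of 6, 6 of 8 and 6 of 6 in the same order. Reads over several genes were removed before deposit, so stretches that a member shares with another gene may be missing from its value. The sources do not say if reads were counted by strand, which decides this for genes on opposite strands. Among genes that fell, exons of Ccna2, Cdc25b, Cdc20 and Ckap2l overlap Exosc9, Spef1, Elovl1 and Gm14024 on the opposite strand, and Foxm1, Top2a and Ncapd2 overlap genes on their own strand.

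The spread between replicates of these genes was wider than that over all genes tested. On the log2 scale the median SD within control was 0.57 over the 46 genes, beside 0.27 over all genes tested, and within Taf4asKO it was 0.36 beside 0.18. Within control, replicate 2 was the highest library in 42 genes and replicate 3 the lowest in 36. Within Taf4asKO, replicate 3 was the lowest in 39 genes while the highest was replicate 2 in 25 and replicate 1 in 17. Most members thus shared the highest and the lowest library of control and the lowest of Taf4asKO. Outside the 46, Knl1, Aspm and Spag5 were also highest in control replicate 2 and lowest in Taf4asKO replicate 3, while E2f1 and Pmf1 were not. The median difference between control replicates 2 and 3 was 1.06 (log2) over the 46 genes and 0.018 over all genes tested, and between Taf4asKO replicates 2 and 3 it was 0.65 and 0.010.

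The deviation of each library from the mean of the gene shows this order beside the difference between groups. Its median over the 46 genes was, by replicate number, 0.53, 1.25 and 0.072 for control and -0.46, -0.25 and -0.81 for Taf4asKO (log2). The step from control replicate 3 to Taf4asKO replicate 2 was thus smaller than that between control replicates 2 and 3. Of the 9 tested genes of activated or differentiating myoblasts, 3 (Myog, Mymk and Myh3) had the same highest and lowest library, and 6 did not. Myog, a transcription factor of differentiating myoblasts, had 1846, 3642 and 910 in control and 765, 441 and 293 in Taf4asKO (log2 fold change -1.98, limma adjusted p 0.0188). Mymk, a membrane protein of myoblast fusion, had 241, 476 and 129 in control and 47, 40 and 19 in Taf4asKO (-2.86, limma adjusted p 0.00350). In both, control replicate 2 was the highest and Taf4asKO replicate 3 the lowest library, as in most of the 46 genes. Myod1, which marks activated MuSCs, had 1088, 1544 and 764 in control and 1834, 1502 and 1009 in Taf4asKO and did not pass (0.37, limma adjusted p 0.378). The 9 tested of the 10 listed genes of activated or differentiating myoblasts summed to between 13881 and 18963 in control and between 14871 and 20699 in Taf4asKO. Past the threshold 2 were lower and 0 higher (3 lower with the replicate block). Of these 9 genes 6 had positive values, with a median log2 fold change of 0.26. Their part in the result was not tested.

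**Figure D4:**
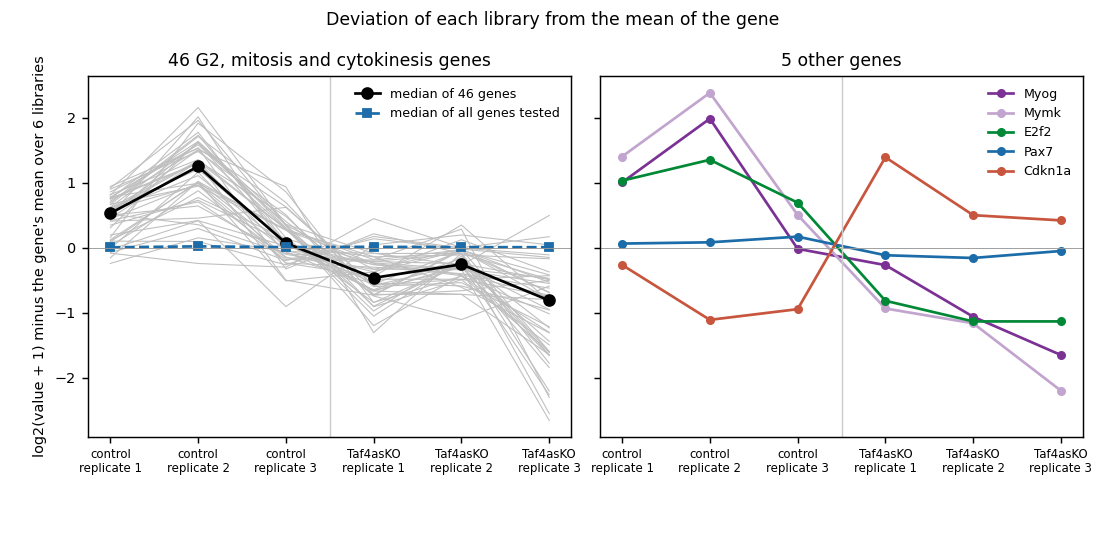
Left, deviation of each library from the gene's mean over 6 libraries (log2(value + 1)) for each of the 46 genes (grey lines), their median (black circles) and the median of all genes tested (blue squares, near 0 in each library); lines join the values of a gene and carry no order of replicates. Right, the same for Myog, Mymk, E2f2, Pax7 and Cdkn1a, where Myog and Mymk peak in control replicate 2 and reach their lowest point in Taf4asKO replicate 3, as the median of the 46 genes does.

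Markers of other cells that a sort could hold also differed. Of the 6 listed Schwann cell markers 5 were higher past the threshold, with sums between 1307 and 3159 in control and between 4017 and 4980 in Taf4asKO. Of the 6 pericyte and smooth muscle markers 2 were higher (sums 9485 to 14779 and 14765 to 17272). Of the 8 fibro-adipogenic markers 2 were lower and 1 higher (69555 to 99130 and 57946 to 82052). In that list 6 of 8 values were positive, with a median log2 fold change of 0.77. Its sums include Col3a1, which lay between 46225 and 47700 in control and between 13082 and 17573 in Taf4asKO. None of the 8 endothelial (947 to 1424 and 1448 to 1820), the 4 analysed of 10 listed immune (469 to 581 and 696 to 942) or the 6 erythroid markers (64 to 239 and 110 to 177) passed. At an unadjusted p under 0.05 in limma, 4 endothelial markers were higher, 1 immune marker was lower and 1 higher, and 0 erythroid markers passed, beside 14.2% of all genes lower and 14.6% higher, and limma-voom called 0 in each of these 3 lists. With the replicate block 2 endothelial markers (Cdh5 and Kdr) and 1 immune marker (Lyz2) were higher. So were 5 of the 6 pericyte and smooth muscle and 5 of the 8 fibro-adipogenic markers. In that fit 2 fibro-adipogenic markers (Col3a1 and Dpt) were lower, beside 8.98% of all genes lower and 9.09% higher. No analysed marker of these lists was at 0 in all libraries. Their part in the fall of the 46 genes was not tested.

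Other genes of the same processes, listed by function, were examined in the same fit. Over 210 such genes tested, 37 fell and 4 rose, and their median log2 fold change was -0.25, beside -1.26 for the 46 genes. Over all genes 6.71% fell and 5.93% rose. With the replicate block 59 were lower and 5 higher, beside 8.98% and 9.09% of all genes. The number lower was 20, 21 and 17 without Taf4asKO replicate 1, 2 or 3, beside 4.26%, 3.35% and 3.21% of all genes. The number higher was 1, 3 and 3, beside 2.72%, 1.84% and 1.97%. With both outlying libraries left out 6 of the 210 were lower and 1 higher, beside 2.55% and 2.0% of all genes, so that the share lower was near that of all genes. The medians of the lists differed, and the differences between them were not tested.

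Of 34 other genes of the spindle and its poles 11 fell and 0 rose (median -0.74), and with the replicate block 17 fell. Dlgap5, which stabilizes kinetochore fibres, fell from 36.7 ± 23.9 to 6.3 ± 4.93 normalized counts (SD, n = 3; log2 fold change -2.38, limma adjusted p 0.0208). Kif14, a kinesin of cytokinesis (-1.88), Aspm, a protein of spindle poles (-1.71), and Spag5, also called astrin (-1.61), fell as well. Of 36 kinetochore genes 5 fell and 0 rose (median -0.42), or 8 with the block. The 5 include Knl1 (-1.85), the platform for BUB proteins, Spc24 (-1.68), of the NDC80 complex, and Pmf1 (-1.44), of the MIS12 complex. Hjurp (-0.62), the chaperone of CENP-A, fell too and is named here after its value was seen.

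Of 24 other genes of mitotic entry 3 fell and 0 rose (median -0.55), and with the replicate block 10 fell. Cdc25a fell from 151.0 ± 3.61 to 93.3 ± 9.07 (-0.69, limma adjusted p 0.0189), and Ensa, an inhibitor of the phosphatase PP2A, from 1190 ± 79.5 to 879.3 ± 60.1 (-0.44, limma adjusted p 0.0201). The third was Pkmyt1 (-1.45), an inhibitory kinase of CDK1, also named after its value was seen. Among 20 genes of cohesin and of other condensin subunits 2 fell (median -0.03), Ncapg (-1.82) of condensin I and Ncapg2 (-0.91) of condensin II, and with the block 4 fell. Of the 18 genes of the APC/C and its partners 0 fell and 0 rose (median 0.02, from -0.29 to 0.48), in limma as in limma-voom, with 0 lower and 1 higher at an unadjusted p under 0.05, beside 14.2% of all genes lower and 14.6% higher. With 6.71% of all genes lower past the threshold, a count of 0 in a list of this size is near the background.

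Transcription factors of the cell cycle were among the lower genes. Of 22 genes of the E2F, retinoblastoma, MuvB and NF-Y families 4 fell and 0 rose (median -0.14). E2f2, an activating E2F factor, had 545, 681 and 431 normalized counts in control libraries and 151, 121 and 121 in Taf4asKO, without overlap. Its log2 fold change was -2.05 (SE 0.18, limma adjusted p 0.000160), close to that of Cdk1 with a smaller error. E2f1 (-1.28) and E2f3 (-0.93) fell too, as did E2f8 (-2.13), at 3 to 46 normalized counts and named after its value was seen. The NF-Y subunits Nfyb (-0.04) and Nfyc (-0.29) did not pass. Nfya (0.34) had a limma adjusted p of 0.0495, with every Taf4asKO library above every control library, and missed the fold limit of 1.3 alone.

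Of 50 genes of DNA replication and S phase 12 fell and 1 rose (median -0.39), and with the replicate block 16 fell and 2 rose. Uhrf1, which keeps up DNA methylation, fell from 119.0 ± 49.1 to 43.7 ± 9.71 (log2 fold change -1.37, limma adjusted p 0.0176). Mcm2 (-1.07) and Mcm6 (-0.89), subunits of the replicative helicase, and Cdk2 (-0.92) fell. Among 6 genes of arrest induced by p53 3 rose and 0 fell (median 0.52). Cdkn1a, which encodes the CDK inhibitor p21, had 1058, 589 and 660 in control and 3330, 1797 and 1700 in Taf4asKO (1.54, SE 0.27, limma adjusted p 0.00553). Ccng1 (0.98) and Btg2 (0.88) rose as well. All 3 were highest in Taf4asKO replicate 1. Without that library Ccng1 (0.83, limma adjusted p 0.0573) and Btg2 (0.70, 0.0545) did not pass, and with both outlying libraries left out Cdkn1a (1.55, 0.0648) and Btg2 (0.74, 0.105) did not.

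**Figure D5:**
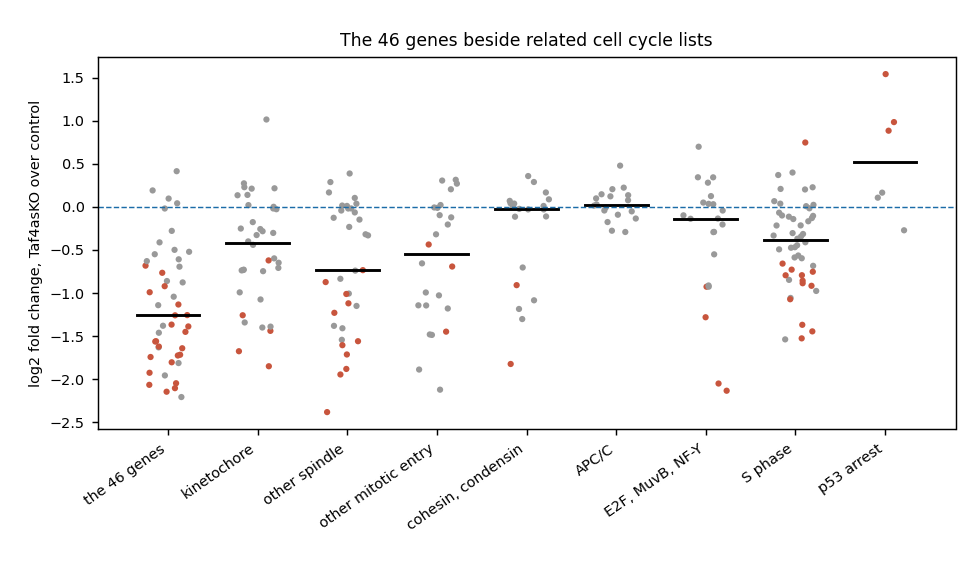
Log2 fold change of Taf4asKO over control (log2(value + 1) scale) for each gene of the 46 and of 8 related lists, with genes past the threshold in red, others in grey, and the median of each list as a black bar; the dashed line is the median of all genes tested (0.004). Medians run from -1.26 for the 46 genes to 0.52 for arrest genes of p53, with the APC/C and cohesin lists near 0.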

How the data were processed

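MuSC RNA was profiled in 6 libraries (3 per group, replicate numbers from the titles). Per the labels, the authors used Trimmomatic 0.39, STAR 2.6.0c, featureCounts 1.6.0 and DESeq2 1.14.1 with build mm10, and the study's methods state that reads mapping to several places or several genes were removed. The unit of the deposited values is a score, since the authors divided read counts by DESeq2 size factors and the table holds whole numbers, that is, rounded quotients. Size factors were estimated from the spacing of these whole numbers (0.857 to 1.33), and reads by multiplying back. The table had 0 value columns without a sample.

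A two-sided test with limma 3.58.1 (R 4.3.3; lmFit, then eBayes with trend) was made on log2(value + 1) for genes with a mean of at least 5, without covariates and with Benjamini-Hochberg adjustment over all 18562 genes. This scale understates changes of low genes. Data were simulated for this comparison with 200 changed genes per run. Of these, 20 were called at 1.5-fold, 124 at 2-fold (18540 genes tested) and 183 at 4-fold, with 0, 1 and 7 false calls. The simulation used the same fixed dispersion for every gene and was not matched to the 46 genes. Their spread was wider than that of all genes (median SD 0.57 beside 0.27 within control), so fewer may be recovered among them. Deviations of same-numbered libraries correlated at 0.235, 0.126 and 0.150, and those of other pairs at -0.149 to 0.0141. The methods state littermate controls without linking them to numbers, and each same-number value is over 0.1, so a replicate block is given where it changes a call.

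All 46 genes are accounted for, and of each related list up to 4 genes past the threshold with the largest change and a mean of at least 20 are named, except that some are not reported here. The members and lists were chosen with earlier results of these data known. Roles, exon lengths (GENCODE M21, mm10) and promoter windows (RefSeq) were added by symbol or identifier. Figures were drawn with matplotlib 3.10.9.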

Additional observations from a re-analysis of the deposited data

How the results depend on the processing

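Alternatives were 3 other scalings (upper quartile, total count, and total without abundant genes), pseudocounts of 0.5 and 5, no filter, a mean of at least 20, the replicate block, limma-voom on estimated reads, no fold limit, a fold limit of 2 and leaving out each library. Leaving out control replicate 2 and Taf4asKO replicate 3 together was chosen after seeing the data. The 23 genes lower among the 46 were 23 under each scaling, both pseudocounts, no filter, limma-voom and no fold limit, 22 of 38 at a mean of at least 20, 19 at a fold limit of 2 and 33 with the replicate block. They ranged from 6 to 25 with single libraries left out, lowest without Taf4asKO replicate 3, and were 2 without both outlying libraries. Genes higher among the 46 were 0 throughout. The median of the 46 (-1.26) was -1.07 with a pseudocount of 5, ranged from -1.54 to -0.99 with single libraries left out, and was -0.65 without both libraries. Among the 3 scalings, upper-quartile scaling moved the median of all genes by most, to -0.034. Over all genes, 1246 were lower and 1101 higher. These were 1667 and 1688 with the replicate block, 520 and 330 at a fold limit of 2, 595 to 1505 and 341 to 1616 with single libraries left out, and 473 and 371 without both libraries. Of the related genes (37 lower, 4 higher), 59 were lower with the block, 22 lower and 1 higher at a fold limit of 2, 17 to 43 lower and 1 to 9 higher with single libraries left out, and 6 lower and 1 higher without both. The cause of these differences was not tested. Without control replicate 2, with 5 libraries, 1505 genes were lower and 1616 higher. Of 728 refitted log2 fold changes of the 46 genes, 630 kept their sign and side of the threshold, 73 lost the call, 15 gained it and 10 changed sign; of 352 for named related genes, 309 kept both and 43 lost the call. The changes of sign were near 0: without both libraries Cenpa was 0.069, Kif4 0.078, Bub1b -0.026 and Bub3 0.19, and with single libraries left out Aurka ranged from -0.21 to 0.45, Smc4 from -0.079 to 0.11, Bub1b from -0.13 to 0.26 and Bub3 from -0.12 to 0.12. Counting error is large in the 8 genes with a mean under 20, such as Ccnb1, with 0 to 24 estimated reads per library. Among these Kif2c passed (limma adjusted p 0.0197), and the effect of depth was not tested.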
